A study of Arabidopsis thaliana with 3 samples.

Results

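The young silique, the fruit that forms around the fertilised ovules, was compared between ABAP1OE and wild-type *Arabidopsis thaliana* at stages 15 to 16 of flower development. The column of this stage is 1 of 3 in the deposited table, and all of its transcript probes were taken, with control spots left out. It held a ratio for 25550 of 26474 transcript probes, from which 5413 genes could be read on a probe that lists no other gene. ABAP1OE plants carry the *ABAP1* coding sequence behind the 35S promoter of cauliflower mosaic virus, and both genotypes are of the Col-0 ecotype. The other columns compare the same genotypes in flower buds (stage 13) and open flowers (stage 14). The 35S promoter is active in most plant tissues, no homozygous overexpressor was recovered in the study, and each RNA came from a pool of organs, so a ratio averages over plants and over all cell types of the silique.

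ABAP1 is a plant protein with armadillo repeats and a BTB domain that binds the pre-replication complex and, with transcription factors, lowers the transcription of genes needed to start DNA replication. In a young wild-type silique the stigma has been pollinated and the ovary wall is elongating as a green and photosynthetic organ. The ovules hold a new embryo, an endosperm of free nuclei and a growing seed coat. The study reports that ABAP1OE siliques were shorter and held many undeveloped seeds, in which embryogenesis was not seen. The tissue content of the siliques compared may thus differ between genotypes, which was not tested here. Elongation of the wall draws on enzymes that cut, loosen or rejoin cell wall polymers, while the seeds draw sugars through exporters of the SWEET family.

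Values of 3 biological replicates had been combined into 1 log2 ratio of ABAP1OE over wild type per probe, with each genotype labelled in both dyes, so no value has an error between plants and no test between genotypes was possible. A positive value means a higher level in ABAP1OE. The direction of the silique column rests on its label, whereas that of the bud column was also set beside the study's own list of bud genes, where 46 of 46 signs matched. The values are ratios without intensities, so the level of a transcript, and with it the labelled tissue, could not be checked against marker genes. *ABAP1* itself was on 0 of the named probes, so its overexpression could not be read from these values either. The only measure of error at hand is between probes of the same gene. Over 48 genes with several differing probes in siliques, the typical SD was 0.26 on the log2 scale (square root of the median variance). From the mean variance it was 0.35. Probes with a log2 size beyond 2.2 were left out of both values. Large disagreements, such as the probes of AT3G09860 at -6.64 and 0.06, are therefore not counted, and the SD is too low for such genes. The SD describes probes and not plants.

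Most genes were near wild type. The median log2 ratio of the 5413 genes was -0.01, the quartiles were -0.21 and 0.20, and 88.1% were less than 1.5-fold from wild type. Between 2-fold and 4.6-fold (log2 sizes of 1 to 2.2), 59 genes (1.09%) were lower in ABAP1OE siliques and 61 (1.13%) were higher. A further 69 genes (1.27%) lay below -2.2 and 6 (0.111%) above 2.2. On these single-gene probes the numbers of lower and higher genes inside the 2-fold to 4.6-fold range were nearly equal. With probes of several genes kept, under each of their genes, 215 of 13977 genes were lower and 90 higher in that range. In that count 1 probe can stand for several genes. With each of the 25550 transcript probes counted once, named or not, 250 were lower and 291 higher.

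The range below -2.2 is also where spots without any probe lie, and its genes are therefore given apart. Of the 36 empty spots, 24 (66.7%) were below -2.2 and 15 had the exact value -2.21 (4.64-fold lower in ABAP1OE), which 42 of the 69 genes share. On the log2 scale that value has the size of the table's limit, 6.64 or 100-fold, divided by 3. A further 11 of the 69 genes stood at the lower limit itself. Empty spots reached the range in between as well, with 2 of 36 (5.56%) between -2.2 and -1, and 1 (2.78%) between 1 and 2.2. A gene inside the 2-fold to 4.6-fold range is therefore not shown by its ratio to have had a signal above background.

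**Figure D1:**
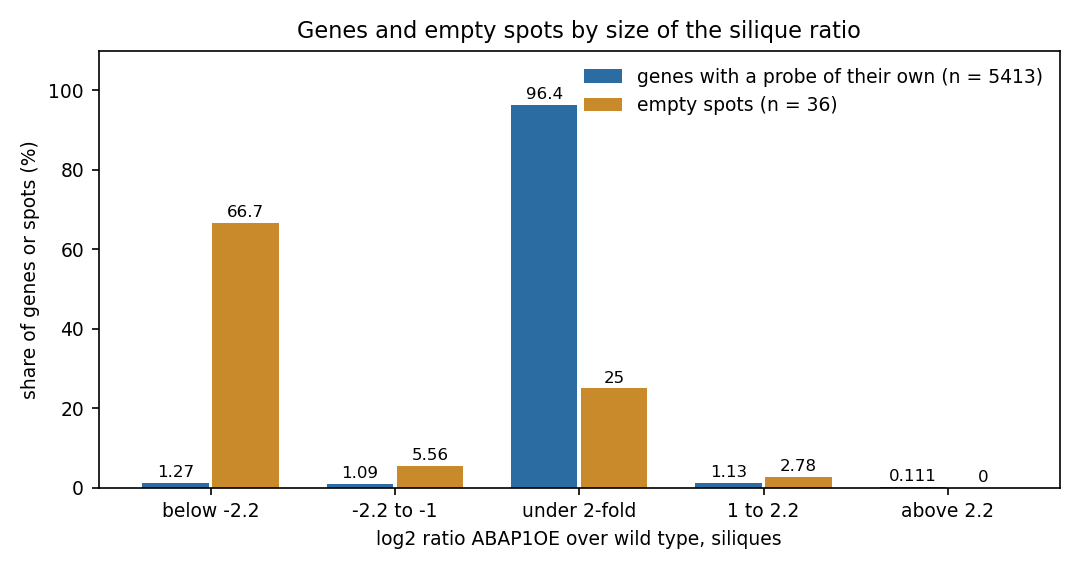
Share of the 5413 genes (blue) and of the 36 empty spots (orange), in percent, by the size of the log2 ratio of ABAP1OE over wild type in siliques. Genes lie under 2-fold in 96.4% of cases, while 66.7% of empty spots lie below -2.2.

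Among genes with an established name, the lowest inside the range was *AGL61*, also known as *DIANA*, a MADS-box transcription factor of the central cell and early endosperm. Its log2 ratio was -1.79 in siliques, a 3.47-fold lower level in ABAP1OE, against -0.40 in buds and 0.06 in open flowers. A second probe, listed for *AGL61* together with *AGL62* and AT4G36590, had a ratio of 0.59 in siliques, so the probes that list the gene lay on opposite sides of 0. *SHT*, which encodes an acyltransferase that makes spermidine conjugates for the pollen coat in the tapetum, was next at -1.66 (3.16-fold lower), with 0.07 in buds and 0.57 in open flowers. The probe it shares with *HCT* and other acyltransferase genes was at 0.24.

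*GH3.3*, an enzyme that conjugates auxin to amino acids and so takes it out of the active pool, had a log2 ratio of -1.53 in siliques (2.89-fold lower) and -1.76 in open flowers, but 0.01 in buds. *GH9B16*, a member of the endoglucanase family of glycosyl hydrolases, was at -1.45 in siliques (2.74-fold lower) and -1.62 in open flowers, with -0.41 in buds, and its shared probe was also below 0 at -0.64. Both genes were thus more than 2-fold lower in open flowers and siliques and less than 2-fold from wild type in buds. *URE*, the urease gene, was at -1.37 in siliques, whereas it was at -0.29 in buds and 0.62 in open flowers.

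*CYTC6A*, cytochrome c6A of the thylakoid lumen, was below -1 at every stage, with log2 ratios of -1.80 in buds, -2.29 in open flowers and -1.19 in siliques. *TTN9* belongs to the TITAN genes, whose mutants have giant endosperm nuclei. It was at -3.95 in buds, -0.68 in open flowers and -1.14 in siliques. The bud value of *TTN9* and the open flower value of *CYTC6A* fall in the range of the empty spots. *AGL76*, another MADS-box gene, was at -1.06 in siliques and 0.40 in buds, and *XTH33*, a xyloglucan endotransglucosylase, at -1.04 in siliques, -0.06 in buds and 0.03 in open flowers. The GDSL lipase gene AT1G20130 was close to the 2-fold edge, at -1.01 in siliques, with -1.73 in buds and 0.52 in open flowers. Just outside the edge lay *DFO*, needed for meiotic DNA breaks, at -0.97.

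Of the 9 higher genes with an established name, 4 belong to the response to water loss and cold. Among all 5413 genes, 534 had a symbol beyond the locus, and the list of drought and cold response genes held 10. That list was chosen with earlier results of these data known, so the 4 are a description only. *LTI30*, a dehydrin also called *XERO2*, had a log2 ratio of 1.39 in siliques (2.62-fold higher in ABAP1OE), with -0.03 in buds and -0.49 in open flowers. *HIS1-3*, a linker histone induced by drought, was at 1.34 (2.54-fold higher), with -0.28 in buds and 0.44 in open flowers, and the probe it shares with the other linker histone genes was at 0.20. *LEA4-5*, a late embryogenesis abundant protein gene, was at 1.21 in siliques and -0.19 in open flowers, against -1.92 in buds. *DI19*, a zinc finger gene named for its induction by drought, was at 1.17 in siliques, -0.34 in buds and 0.31 in open flowers. Its 2 probes carried the same value to the last digit and so count as 1 measurement, and its shared probe was at 0.33.

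The other higher genes had unrelated functions. *TBL31*, of the family that acetylates cell wall polymers, was at 1.36 in siliques (2.57-fold higher), though below 0 in buds (-0.82) and open flowers (-0.37). *SWEET9*, which exports sucrose in nectaries, was at 1.11 in siliques. *BCAT4*, an aminotransferase that starts the chain elongation of methionine for glucosinolates, was the only named higher gene inside the range with ratios above 0 at all 3 stages, with 0.75 in buds, 0.39 in open flowers and 1.08 in siliques. *UGT85A5*, a glycosyltransferase, was at 1.02, but the probe it shares with *UGT85A2* and *UGT85A7* was at 0. *RECQSIM*, a RecQ-like helicase, was at 1.01 in siliques, -0.03 in buds and -0.32 in open flowers.

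**Figure D2:**
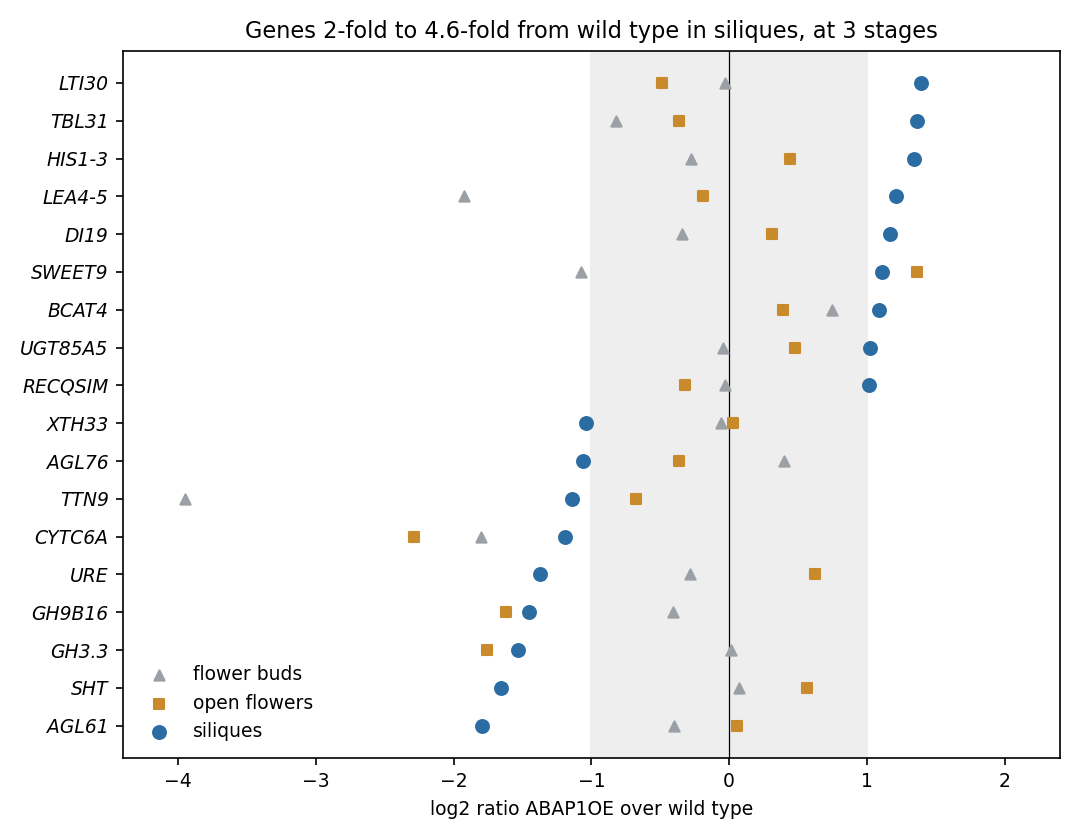
Log2 ratio of ABAP1OE over wild type (horizontal axis) of the 18 genes with a RefSeq symbol between 2-fold and 4.6-fold in siliques, with siliques as circles, open flowers as squares and flower buds as triangles. The grey band is under 2-fold, and *CYTC6A* is the only one of these genes with all 3 symbols left of it, while *SWEET9* and *LEA4-5* have symbols on both sides.

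The other genes inside the range are known here by locus only. The lowest of them was AT1G57906 at -2.05 and the highest was AT3G23370 at 2.16. AT3G23370 had the empty-spot value of -2.21 in both buds and open flowers. AT1G26390 was high in siliques and in buds (1.74 and 1.76), and lower in open flowers at 0.58. AT5G54020 was high in siliques and buds too (1.43 and 1.42), with 0.74 in open flowers. AT3G47660 was high in siliques and open flowers (1.496 and 1.45), with 0.15 in buds.

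Genes beyond 2.2 have no order among themselves, since most stand at the limit or its steps. The named ones on the lower side were *TIC*, a regulator of the circadian clock, *AGL85*, a MADS-box gene, and *ACS*, acetyl-CoA synthetase. *TIC* stood at the lower limit of -6.64 in siliques, yet 2 further probes that it shares with *TKL* were at 0.43 and -0.14, and its own probe was at -0.14 in buds and 0.21 in open flowers. *AGL85* was at -4.19 in siliques and at -2.21, the value of the empty spots, at both earlier stages, and *ACS* was at -2.21 at all 3. On the higher side the named gene was *BIN4*, a subunit of the DNA topoisomerase VI complex needed for endoreduplication, at 3.18 in siliques, 1.34 in open flowers and -6.64 in buds. Of the 69 genes below -2.2 in siliques, 43 (62.3%) were also below -2.2 in buds, where 1.98% of all genes lay, and 36 (52.2%) in open flowers, where 1.77% of all genes lay.

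Across gene families, 35 lists with 274 genes were followed, and 13 of the lists had a member inside the 2-fold to 4.6-fold range. Over all genes, 1.09% were in the lower and 1.13% in the higher part of that range. The lists were chosen and trimmed with values known, and a gene can be in several, so the 13 is not a result about families. For reading the counts that follow, 46.7% of all genes were above 0 in siliques and 51.3% below. These lists hold few genes, all measured in the same combined arrays, so their counts and medians are descriptions. Many of the lists are also given over all of their named probes, each probe counted once whether it lists 1 gene or several, which takes in further members of a family. Probes that carry identical values were not merged, so the same measurement can count more than once in them. Over all 13275 named probes, 50.2% were below 0 and 47.9% above, with a median of -0.01.

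Late embryogenesis abundant proteins and dehydrins, which protect cells as they lose water, had the highest median, 0.99 over 4 genes, against -0.01 over all genes. It was 0.60 over the 6 named probes of the list, and 0.52 with probes of several genes averaged in. *LTI30* and *LEA4-5* were joined by the dehydrin gene *HIRD11* at 0.77, while *LEA26* was at -0.04. The wider list of drought and cold response genes had 9 of 10 members above 0 and 4 inside the higher range, with a median of 0.40. It includes *LTI30* and *LEA4-5*, *HIS1-3* and *DI19* as given above, and *XERICO*, a RING protein that raises abscisic acid, at 0.52. *SAT32* was at 0.29, *RD2* at 0.26, *TIL* at 0.23 and *OSM34* at 0.10, all near or under the SD between probes of 0.26, and *DI21* was at -0.18. The median of these 10 genes was 0.03 in buds and 0.14 in open flowers. Of all 22 named probes of the list, in which the 2 identical ones of *DI19* both count, 20 were above 0 in siliques, with a median of 0.31. The 4 genes listed for the embryo and seed storage, in contrast, lay around 0. *PAP85*, a storage vicilin, was at 0.20, *BZIP53* at 0.00, *AGL67* at -0.21 and *BBM* at -0.28. Probes that *PAP85* and *AGL67* share with other genes were at 0.18 and 0.41.

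Genes of the photosystems, their antenna and the chloroplast NDH complex, which cycles electrons around photosystem I, lay above 0 in 11 of 12 cases, although none reached 2-fold. Their median was 0.03 in buds, 0.25 in open flowers and 0.42 in siliques. Taking all named probes of the list, 17 of 21 were above 0 in siliques, with a median of 0.26. The NDH subunit genes *NdhL* and *NdhS* were at 0.74 and 0.46 in siliques, and *CRR41* and *CRR21*, needed for its function, at 0.70 and 0.38. *PSB27*, which helps assemble photosystem II, was at 0.58, with 0.18 on the probe it shares with other genes. *PSAN*, a subunit of photosystem I, and *LHB1B2*, a protein of the light-harvesting antenna, were both at 0.45. The smallest values were those of *PIFI* (0.26), *NdhN* (0.16), *PSBW* (0.15) and *PSBY* (0.01), and the single member below 0 was *LPA19*, another assembly factor of photosystem II, at -0.18. The thylakoid gene *CYTC6A*, which is not in the list, stood apart from it at -1.19. In pooled siliques, a change in the share of cells of a type and a change in RNA per cell cannot be told apart, in either direction.

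**Figure D3:**
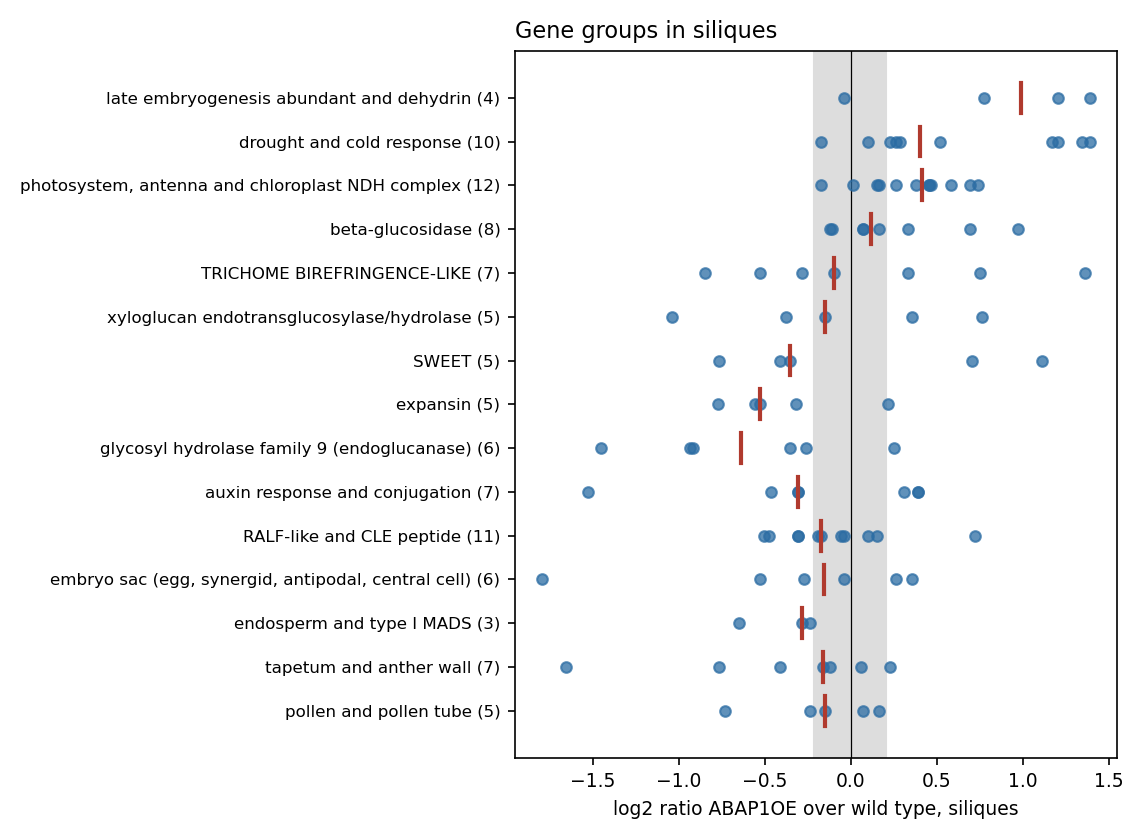
Log2 ratio of ABAP1OE over wild type in siliques for the members of 15 gene groups (points, with the number of genes in parentheses) and the median of each group (red line). The grey band spans the quartiles of all 5413 genes, -0.21 to 0.20. Dehydrins, drought and cold genes and photosystem genes have medians right of it, and SWEET, expansin, family 9, auxin and endosperm genes left of it.

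Families that act on the growing cell wall differed from each other. Family 9 glycosyl hydrolases, endoglucanases that cut glucan chains, were below 0 in 5 of 6 cases with a median of -0.64, the lowest of the lists on probes of their own. After *GH9B16* came *GH9B11* at -0.93 and *GH9C1* at -0.92, then *GH9A4* at -0.36 and *GH9B8* at -0.26, with *GH9B12* at 0.25. On its own probe *GH9B11* was also below 0 at the other stages, with -0.82 in buds and -0.99 in open flowers. *GH9A4* was farther below 0 there than in siliques, with -0.96 and -0.81. *GH9C1* was at 0.56 in buds and -0.21 in open flowers. The probe of 4 *GH9B* genes including *GH9B11* and *GH9B12* was at -0.86 in siliques, -0.585 in open flowers and 0.06 in buds. In contrast, the probe that lists *GH9C1* and *GH9B8* with 2 other genes was at 0.32 in siliques. Over all named probes of the family, 11 of 16 were below 0, with a median of -0.31.

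Expansins, which loosen the wall without cutting it, were below 0 in 4 of 5 cases with a median of -0.53. *EXPA20* was at -0.77, *EXPA21* at -0.56, *EXLB1* at -0.53, *EXPB5* at -0.32 and *EXPA24* at 0.21. Of the shared probes, that of *EXPA21*, *EXPA23*, *EXPA24* and *EXPA25* was at -0.93, that of *EXLB1* and *EXLA2* at -0.42, and that of *EXPA20* and *EXPA9* at 0.06. Over all named probes of the family, 12 of 15 were below 0, with a median of -0.32. Xyloglucan endotransglucosylases, which cut and rejoin xyloglucan, spread over both sides, with *XTH33* at -1.04, *XTH26* at -0.38, *XTH21* at -0.15, *XTH20* at 0.36 and *XTH19* at 0.77, and with 4 of 6 named probes below 0.

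The TRICHOME BIREFRINGENCE-LIKE genes also spread widely around a median of -0.10, with 11 of 21 named probes below 0. *TBL41* was lowest at -0.85, and it was low in buds (-1.16) and open flowers (-0.77) as well, though its shared probe was at 0.42. *TBL31* and *TBL30* were highest at 1.36 and 0.75, both below 0 at the earlier stages. The locus next to *TBL31*, AT1G73130, was at 1.44, and the 2 genes overlap in the TAIR10.1 annotation. Of 1195 pairs of neighbouring genes that both had a probe of their own, 592 lay on the same side of 0, and in 3 pairs both genes were inside the 2-fold to 4.6-fold range. The other pairs were AT1G64360 and AT1G64370, at 1.06 and 1.46, and AT5G24480 and AT5G24490, at 1.10 and -1.29. Beta-glucosidases were above 0 in 6 of 8 cases with a median of 0.12, led by *BGLU33* at 0.97 and *BGLU24* at 0.70, and the probe that *BGLU24* shares with *PYK10* was at 0.64. Of the 26 named probes of the family, 16 were above 0.

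Sugar exporters of the SWEET family divided into higher and lower members. *SWEET9* had a bud ratio of -1.08, but 1.36 in open flowers and 1.11 in siliques. *SAG29*, also known as *SWEET15*, which feeds the embryo, followed the same course at -0.57, 0.62 and 0.70. *SWEET8*, which feeds developing pollen, was below 0 at every stage on its own probe, with -0.83 in buds, -0.78 in open flowers and -0.77 in siliques. The probe it shares with *SWEET4* and *AtVEX1* was at -1.43, 0.08 and -0.10 at these stages. That shared with *SWEET6* and *SWEET7* was at 0.26, 0.04 and -0.83. *SWEET2* and *SWEET10* were at -0.41 and -0.36 in siliques, but their shared probes, which list other SWEET genes, were at 0.44 and 0.67. The median of the 5 genes was -0.36, while over all 15 named probes of the family it was -0.06, with 8 below 0 and 7 above. Other genes listed as transporters by their name, not all of which need be transporters, had a median of -0.11 over 17 genes and -0.04 over 40 named probes. Among them *TMT1*, which loads hexoses into the vacuole, was at -0.90, with 0.08 on the probe shared with its paralogues, the zinc transporter gene *ZIP6* was at -0.89, and *NPF3.1*, of the nitrate and peptide transporter family, was at 0.69.

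**Figure D4:**
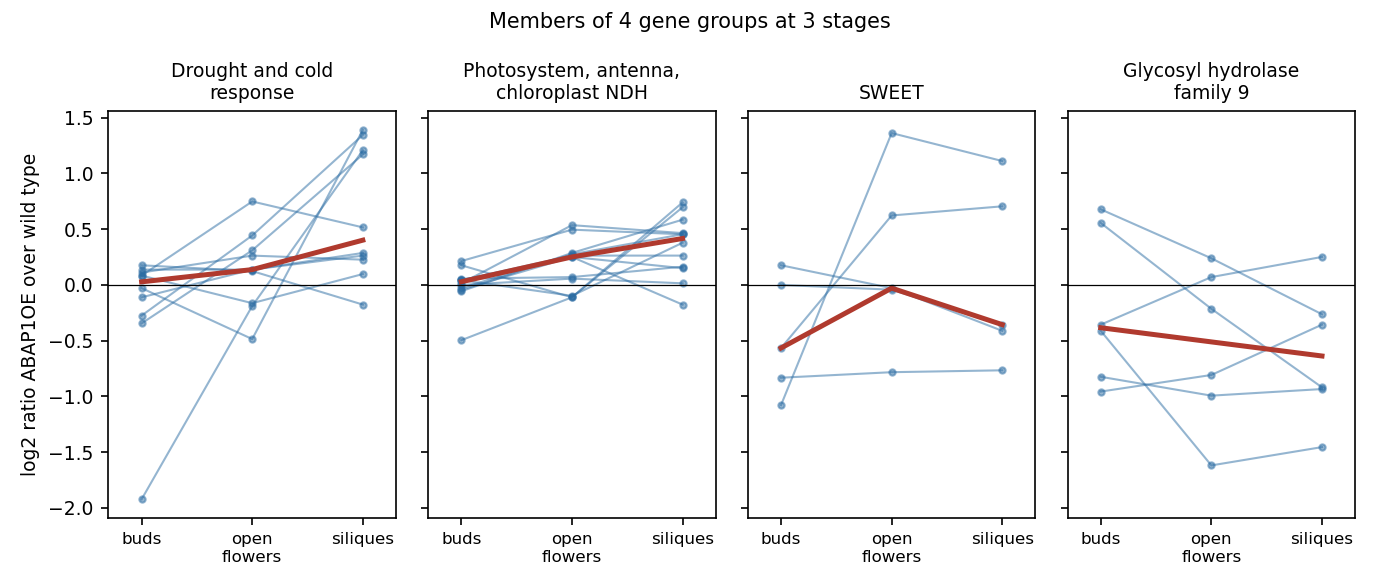
Log2 ratio of ABAP1OE over wild type of each member (blue) and the median (red) of 4 gene groups at the 3 stages, in order of development. The median of drought and cold genes goes from 0.03 in buds to 0.14 and 0.40, and that of photosystem genes from 0.03 to 0.25 and 0.42. Of the SWEET genes, *SWEET9* and *SAG29* go from below 0 in buds to above 0 at the later stages.

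Markers of the cell types of the ovule and anther gave short lists. In the embryo sac list, with a median of -0.16 over 6 genes, *AGL61* was followed by the egg cell peptide genes *EC1.5* at -0.53 and *EC1.1* at -0.28, whose shared probes were at -0.14 and -0.26. Of the 16 named probes of this list 8 were below 0 and 8 above, and the median of its genes was 0.03 with probes of several genes averaged in. The DNA glycosylase gene *DME*, which acts in the central cell, was at -0.04, the receptor kinase gene *FER*, which acts in synergids, at 0.26, and *UBC31* at 0.36, against -2.19 in buds. All 3 genes of the endosperm list were below 0: the imprinted gene *MPC* at -0.65, the type I MADS-box gene *AGL96* at -0.29 and *SHB1*, which promotes endosperm growth, at -0.24, with 0.44 on the probe *SHB1* shares. Over all named probes of that list, most of them of MADS-box genes, 16 of 19 were below 0 in siliques, with a median of -0.20. *INO*, which forms the outer integument, was at -0.63, with 0.57 on the probe shared with other YABBY genes. *GOA*, a MADS-box gene of the seed coat and fruit, was at 0.79 in siliques, against 0.65 in buds and -0.45 in open flowers.

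The anther lists had medians of -0.16 (tapetum, 7 genes) and -0.15 (pollen, 5 genes). Beside *SHT* and *SWEET8*, the receptor gene *EMS1*, which specifies the tapetum, was at -0.41, and *SETH1*, needed for pollen germination, was at -0.73. The remaining members of both lists lay between -0.24 and 0.23. Over all named probes, 8 of 12 in the tapetum list and 16 of 24 in the pollen list were below 0, with medians of -0.12 and -0.24. What part these tissues had in the other ratios was not tested.

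MADS-box genes as a family had 10 members below 0 and 8 above, with a median of -0.08, and 36 of 60 named probes were below 0. Besides *AGL61*, *AGL76* and *AGL85*, the members farthest from 0 were higher ones: *AGL95* at 0.86, *GOA* at 0.79, *AGL33* at 0.77 and *AGL77* at 0.52. *AGL95* was high at all 3 stages, at 0.96 in buds and 1.13 in open flowers, but the probe that lists it with *AGL96*, *AGL41* and *AGL48* was at -0.75 in siliques. *AGL77* was at -0.76 in buds and 1.28 in open flowers. Other transcription factors of the MYB, bHLH, WRKY, TCP, AP2 and REM families had a median of 0.15 over 16 genes, with *BHLH101*, of the iron response, at -0.78 and *BHLH92* and *CES* both at 0.58.

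The other GH3 genes were below 0 as well, with *GH3.9* at -0.46 and *GH3.1* at -0.31. However, the probes that list *GH3.9* with *GH3.17*, which carry identical values, were at 0.11. The AUX/IAA genes, which repress auxin responses, lay on both sides, with *IAA31* at -0.31, *IAA29* at 0.31, and *IAA15* and *IAA33* both at 0.39. Of the 11 named probes of the auxin list 6 were below 0. Genes of small secreted peptides were below 0 in 8 of 11 cases with a median of -0.18, and over all named probes in 18 of 24 cases. They ranged from *RALFL25* at -0.51 and *RALFL34* at -0.48 to *GRI* at 0.72. The *RALFL25* ratio was -1.08 in buds and -0.71 in open flowers, and that of the stem cell peptide gene *CLV3* was -0.31 in siliques and 0.00 in buds.

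DNA replication and repair genes, the class nearest to the known role of ABAP1, had a median of -0.07 over 17 genes, with 10 below 0 and 7 above, and the same median over 23 named probes. The replication genes proper were close to wild type: *ICU2*, the catalytic subunit of DNA polymerase alpha, was at -0.24, the primase gene *POLA3* at -0.20, *PSF2* of the GINS complex at -0.08 and *POLD3* at -0.07. Apart from *DFO*, *RECQSIM* and *BIN4*, the members lay between -0.26 and 0.41. Histone genes had a median of -0.03 over 7 genes and -0.04 over 14 named probes, with *HTR12*, the centromeric histone, at -0.33, and *HIS1-3* alone far from 0. The genes *CDT1B*, *TCP16* and *ADAP*, studied with *ABAP1* elsewhere in the work, were on no named probe and are not analysed here.

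The remaining lists had medians between -0.16 and 0.18 and, apart from *UGT85A5*, no member inside the 2-fold to 4.6-fold range. Enzymes that glycosylate small molecules (20 UGT genes, median 0.04), glutathione transferases (7 genes, 0.01), ubiquitin conjugation genes (19 genes, 0.07), serine carboxypeptidase-like genes (10 genes, 0.06) and IQD genes of the microtubule array (7 genes, -0.03) had medians near 0 on single-gene probes. Over all their named probes, however, 20 of 29 were below 0 for the serine carboxypeptidase-like genes, with a median of -0.21, and 10 of 16 for the IQD genes, with a median of -0.12. The UGT probes had a median of 0.00 over 59, with 27 below 0. All 5 prenylated RAB acceptor genes, which act in vesicle traffic, were below 0, though only to -0.39, as were 13 of the 16 named probes of that family. *UGT73C2* at -0.88 was the lowest of the UGT genes, and *TET13*, a tetraspanin gene, at 0.78 the highest member of these families after *UGT85A5*.

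Set beside the other stages, many genes 2-fold to 4.6-fold from wild type in siliques were under 2-fold elsewhere, though a smaller share than of all genes. Of all 5413 genes, 5115 were under 2-fold in buds and 5192 in open flowers. Of the 59 lower genes, 44 were under 2-fold in buds, 40 in open flowers and 31 in both. In buds 8 of the 59 were in the same lower range, where 2.42% of all genes lay, and in open flowers 10, where 1.03% of all genes lay. A further 6 of the 59 were below -2.2 in buds and 8 in open flowers. Of the 61 higher genes, 52 were under 2-fold in buds, 49 in open flowers and 43 at both of these stages. In buds 4 of the 61 were in the higher range, where 1.03% of all genes lay, and another 4 were in the lower range. In open flowers 8 were in the higher range, where 1.20% of all genes lay, and 2 in the lower range. By sign alone, 39 of the 59 lower genes (66.1%) were below 0 in buds and 40 (67.8%) in open flowers, where 46.8% and 50.1% of all genes were. Of the 61 higher genes, 32 (52.5%) were above 0 in buds, near the 50.4% of all genes, and 41 (67.2%) in open flowers, where 47.2% of all genes were. Each stage was hybridised with its own pools, and no stage was tested against another.

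The genes that the study listed for buds lay near wild type in siliques. Of the 46 with a probe of their own, 40 were lower in ABAP1OE buds. In siliques 23 of these 40 were below 0 and 16 above, with a median of -0.06 and a range from -1.01 (AT1G20130) to 1.21 (*LEA4-5*). The 6 that were higher in buds lay between -0.21 and 0.76 in siliques, with 3 above 0.

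How far a single probe can be relied on was read from genes with several. A probe at 2-fold or more belonged to 14 genes with several probes of their own, and all probes were 2-fold the same way in 2 of these, *DI19* and AT2G25450, where the probes carried identical values. AT2G11270, with 17 probes, ranged from -1.87 to 0.86. The averages of AT1G62500, AT2G41650, AT3G62710 and AT1G66850 inside the lower range each rest on a probe at or below -2.21. Of the 120 genes inside the 2-fold to 4.6-fold range, 55 were also listed on probes of several genes, and 5 of these stayed 2-fold the same way when such probes were averaged in. The 65 others are on no such probe. Probes of several genes can also bind transcripts of paralogues that differ in their own response, so the 2 kinds of probe need not measure the same transcript.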

How the data were processed

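Pools of siliques, flower buds and open flowers of ABAP1OE and wild-type plants were hybridised on 2-colour arrays of long oligonucleotide probes, after amplification to antisense RNA. The deposited values are log2 ratios, made by the authors from 3 biological replicates per stage combined into 1 column. How background was corrected, dyes normalized and replicates averaged is not given in the sources used here. Signal over background and depth are unknown, and so is the precision of a ratio. The ratios were used as deposited. The platform annotation gave 1 symbol for 5784 transcript probes, several for 7497 and none for 13193, which are unnamed here but may still have a gene. Single-symbol probes took the name that the TAIR10.1 RefSeq table gives their identifier (28 did not match), and probes of a gene were averaged. Of the 5413 genes, 5130 had 1 such probe. The build behind the array is not given, so no coordinates are printed.

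Genes were counted by log2 size, with edges at 1 and 2.2. The text names genes with a symbol or a description inside those edges, up to 4 low and 4 high members of each list, named genes beyond 2.2, genes 2-fold opposite ways at 2 stages, and genes whose probes agree. Other genes named, among them loci without a symbol and further list members, were chosen after their values were seen. The members and lists were chosen with earlier results of these data known, and the lists were trimmed of false name matches and split by family after values were seen. Members were matched by symbol or synonym, so a false match can remain. Alternatives were the probe farthest from 0, probes of several genes, every transcript probe, values at the limit left out, centring, genes with several probes, other sizes and the mean, and, added after seeing the data, each named probe counted once. A planned search of promoters for motifs was not run, since no promoter sequence was used here. The counting was tested on simulated data. Python 3.11.15, numpy 2.4.6, pandas 2.3.3 and matplotlib 3.10.9 were used.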

Additional observations from a re-analysis of the deposited data

Results flagged for a closer look

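A total of 7 genes inside the 2-fold to 4.6-fold range in siliques lay 2-fold or more on the other side of wild type, inside the same range, at another stage. Each rests on 1 combined ratio per stage, and the differences were not tested. Against flower buds, *LEA4-5* differed most, by 3.13 on the log2 scale (1.21 in siliques and -1.92 in buds), followed by AT1G57650 by 3.11 (1.54 and -1.57), AT1G16950 by 2.79 (1.501 and -1.29) and *SWEET9* by 2.19 (1.11 and -1.08). Against open flowers, AT4G13370 differed by 3.25 (1.65 in siliques and -1.59 in open flowers), AT1G63205 by 2.70 (1.26 and -1.44) and AT2G26370 by -2.67 (-1.25 and 1.42). With probes of several genes averaged in, the silique ratio was 0.82 for AT1G57650, 0.88 for AT4G13370 and 0.32 for AT1G63205. The 4 others are on no such probe.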

How the results depend on the processing

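No paired analysis was possible because the 3 replicates of a stage come as 1 combined value. For the same reason no replicate could be left out. Against 59 lower genes, 61 higher genes and 69 genes below -2.2, keeping probes of several genes gave 215 lower, 90 higher and 125 below -2.2, over 13977 genes. Counting every transcript probe gave 250 lower, 291 higher and 390 below -2.2. Genes with 2 or more probes gave 4 lower, 2 higher and 2 below -2.2. From 1.5-fold there were 266 lower and 303 higher genes, and from 3-fold 13 and 5. Without values at the limit and its steps, 15 genes were below -2.2. Centring on the median of -0.01 gave 101 lower, 65 higher and 27 below -2.2, since the 42 genes at -2.21 then crossed the edge at -2.2. Of 24 recomputed counts, 9 stayed within 1.5 times the value given. Without values beyond 2.2 there were 55 lower and 61 higher genes.

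Of 205 recomputed list medians, 198 moved by less than the SD between probes of 0.26, which leaves out probes with a log2 size beyond 2.2. That count is no measure of stability, since most settings could hardly move a median. Of the 5413 genes 5130 had 1 probe, few list members lay at the limit or its steps, and centring shifted every list by the same 0.01. The 7 medians that moved did so with probes of several genes kept or with the mean. With probes of several genes kept, which adds family members, the median was 0.52 for dehydrins and late embryogenesis abundant proteins, -0.26 for family 9 glycosyl hydrolases, -0.24 for expansins, 0.02 for SWEET, -0.45 for response regulators and -0.26 for serine carboxypeptidase-like genes, and the mean of SWEET genes was 0.06. In 18 cases the median changed its side of 0, among them the embryo sac list (0.03 with probes of several genes) and, for the mean, DNA replication and repair (0.16), histones (0.12) and TRICHOME BIREFRINGENCE-LIKE genes (0.10). Medians over every transcript probe were not run, since most probes have no name. Signal over background is unknown and limits every ratio.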
